A study of Mus musculus with 7 samples.

Results

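Genes that peroxisome proliferator-activated receptors (PPARs) switch on during fasting were examined in quadriceps femoris, the large muscle of the front of the thigh. The set was given by name and comprised the receptors Ppara and Ppard and 6 genes that they are known to drive, which are Angptl4, Ucp2, Ucp3, Plin2, Acot1 and Vldlr. Every probe set (the group of short probes that reads 1 transcript on an Affymetrix array) whose annotation held 1 of these symbols and no other was taken. The rule found 17 probe sets of 7 of the 8 genes, among 34945 probe sets tested and 45101 in the table. Ppara had 3 probe sets, Ppard, Angptl4 and Ucp3 had 2 each, Plin2 and Acot1 had 1 each, and Vldlr had 6. No probe set carried the symbol Ucp2 alone, and Ucp2 is not analysed here.

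PPARs are nuclear receptors that bind fatty acids and related lipids and sit on DNA as partners of the retinoid X receptors. In fasted muscle, fatty acids released from fat reach the fibres, and PPAR-alpha and PPAR-delta raise the genes for taking up, storing and oxidising them. The classical binding element is a direct repeat of the half-site AGGTCA with 1 base between the copies.

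The study compared 3 mice that overexpress mutant Twinkle from a transgene with 4 wild-type mice, where Twinkle is the DNA helicase of mitochondria. Its title speaks of starvation and of FGF21, a hormone, and its design text calls the transgenic mice a model of progressive external ophthalmoplegia, a mitochondrial disease of muscle. Ages were 24, 24 and 21 months for mutant replicates 1 to 3 and 26, 24, 21 and 23 months for wild-type replicates 1 to 4, with 1 array per mouse. The promoter of the transgene and the cell types that carry it are not given in the sources used here, and neither are strain, sex and feeding state.

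Values are log2 values relative to the median of that probe set over the 7 arrays, as deposited, so a value of 1 stands for a doubling against the median and no absolute level is printed. A rough level class was recovered from the number format, and it placed the median array of a probe set between 2 and 4, between 4 and 8 or between 8 and 16 on the log2 scale. All 10 muscle fibre markers lay in the class from 8 to 16. Of 8 measured cerebellum markers, a tissue that the sample descriptions name, 0 lay in that class and 4 lay in the lowest. The first principal component held 55.3% of the variance of 20861 probe sets and set mutant replicate 2 and wild-type replicates 1 and 4, with positive loadings, apart from the other 4 arrays. Wild-type replicate 3 had the most negative loading, and its 5-prime to 3-prime difference for Gapdh was -0.55, against -0.04 to 0.09 on the other arrays. The same difference for actin did not set this array apart, at 0.119 against -0.136 to 0.124 on the other arrays. The mean signal of 18S ribosomal RNA was highest in mutant replicate 1, at 3.19, and lay between -0.77 and 0.56 elsewhere. That array also held the highest values of Fgf21, Acot2, Mt2, Nrip1 and Pdk4 given further on. It held the lowest values of Acot1, Cebpd, Plin4 and Twnk, and the part of ribosomal RNA in all of these was not tested. Over all 18193 genes, mutant replicate 1 was the highest or lowest array in 29.9%. The mean of the slow fibre markers was -3.40 and -2.09 in wild-type replicates 1 and 2, against -0.10 to 0.73 elsewhere. In whole muscle, fewer cells of a type and less RNA per cell cannot be told apart.

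None of the receptors and target genes measured passed the test for a difference between mutant and wild-type muscle across all genes. In the gene-level limma fit, 0 of 7 genes passed an adjusted p of 0.05 and 0 had an unadjusted p under 0.05, where the background over 18193 genes was 0.0% and 1.41% (257 genes). In the probe-set fit, 0 of 17 passed the adjusted threshold and 0 the unadjusted one, against 0.0% and 1.79% (627) of 34945 probe sets. In none of the 7 genes and none of the 17 probe sets did the mutant and wild-type values separate without overlap, which they did for 2.11% of all genes and 2.05% of all probe sets. Of the 7 genes, 4 had a positive and 3 a negative difference, and their median was 0.05 beside -0.01 over all genes. Adjusted p-values were 1.00 for every gene and probe set measured. By comparison Fgf21, the gene of the hormone in the title, stood at 2.03, 0.93 and 0.83 in the mutant arrays and at -0.43, -0.40, 0.00 and -0.05 in the wild-type arrays. Its groups did not overlap, with a difference of 1.48 ± 0.29 (limma SE, 2.79-fold, unadjusted p = 0.00121, adjusted p = 1.00), so it did not pass the adjusted threshold either. Without mutant replicate 1 the Fgf21 difference was 1.10. Twnk, the mouse gene of Twinkle, differed by 0.04 ± 0.18.

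**Figure D1:**
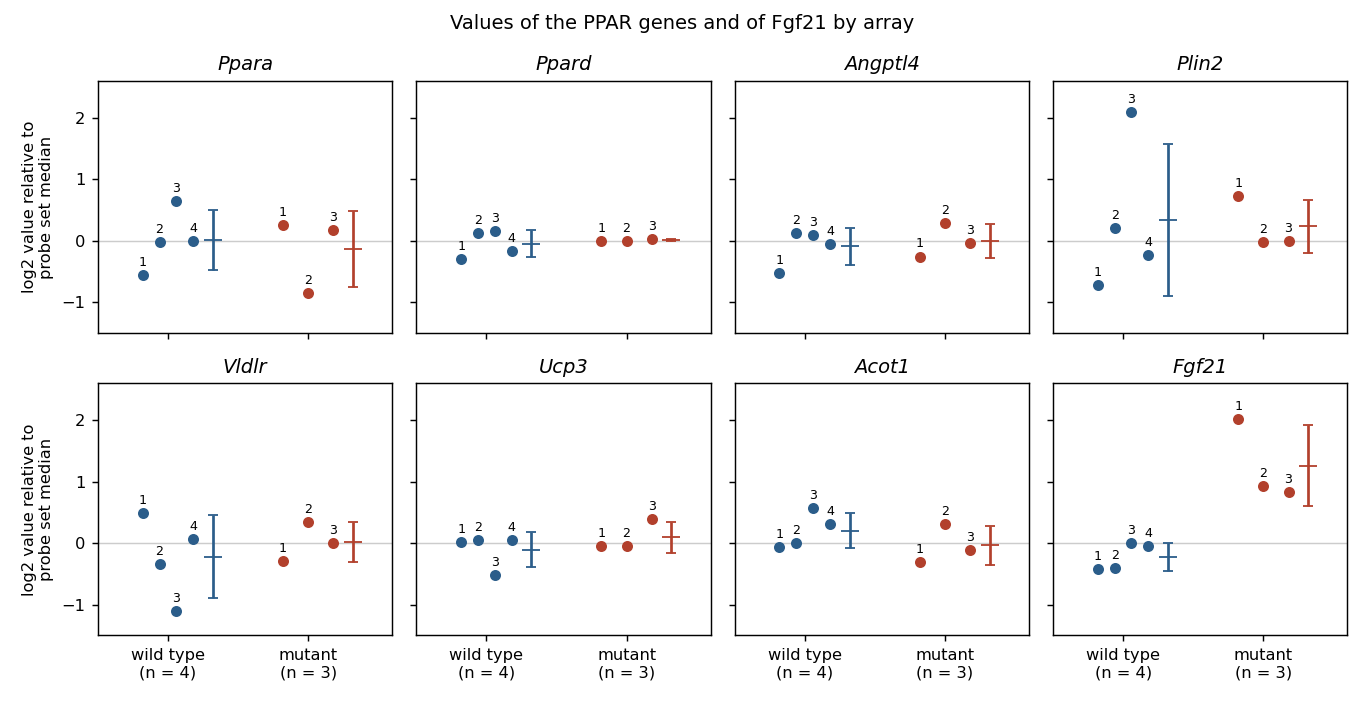
Values of the 7 measured PPAR genes and of Fgf21 on each array, in log2 relative to the median of the probe set (vertical axis), for wild-type (blue) and mutant (red) mice. Points are single arrays with their replicate number, and bars are the group mean with its SD. The groups overlap in all 7 PPAR genes and do not overlap in Fgf21.

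The promoter windows of the set were searched for the half-site, because the receptors act through it. RefSeq sequences (build GRCm38.p6), which run from 250 bases before to 50 bases after the start of a gene, matched 7 of the 8 genes in 8 windows, since Vldlr had 2 starts and Angptl4 had no window. The half-site AGGTCA, read on both strands, occurred in 2 of the 8 windows, those of Ucp3 and Plin2, and in 16.3% of 32851 windows of this length. The full repeat with 1 base between occurred in 0 of the 8 and in 0.0396% of all windows. With the 4th base of each half-site free, it occurred in 0 of the 8 and in 0.381% of all windows. A match is a description of letters, and elements farther from the start lie outside these windows. Both windows with a match are printed 5-prime to 3-prime along the gene, with half-sites in capitals. Ucp3 lies at chr7:100472741-100473040 on the plus strand, with half-sites that begin 149 and 44 bases before the start. Plin2 lies at chr4:86670010-86670309 on the minus strand, with 1 half-site 218 bases before the start that reads TGACCT because it is on the opposite strand.
Ucp3: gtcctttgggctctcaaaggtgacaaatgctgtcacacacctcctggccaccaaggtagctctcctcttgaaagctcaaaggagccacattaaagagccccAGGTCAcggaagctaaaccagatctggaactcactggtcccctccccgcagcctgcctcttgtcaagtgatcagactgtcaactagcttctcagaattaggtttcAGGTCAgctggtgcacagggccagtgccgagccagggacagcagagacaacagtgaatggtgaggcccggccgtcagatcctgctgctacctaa
Plin2: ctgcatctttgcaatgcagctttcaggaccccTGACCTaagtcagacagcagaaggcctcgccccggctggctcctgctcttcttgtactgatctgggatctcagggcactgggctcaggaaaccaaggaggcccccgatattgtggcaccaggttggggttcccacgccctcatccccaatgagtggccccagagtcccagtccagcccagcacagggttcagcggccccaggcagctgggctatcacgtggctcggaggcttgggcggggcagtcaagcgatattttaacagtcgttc
Of the 2 genes, Ucp3 had a difference between groups of 0.20 ± 0.18 and Plin2 one of -0.10 ± 0.62, as described with their arrays further on.

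Ppara encodes PPAR-alpha, the fatty acid receptor best known for the fasting response of liver and also present in oxidative muscle. Its gene value came from 1 probe set (1457721_at) in the class from 8 to 16. It stood at 0.26, -0.85 and 0.18 in mutant replicates 1 to 3 and at -0.55, -0.02, 0.64 and 0.00 in wild-type replicates 1 to 4. The groups overlapped, with mutant replicate 2 the lowest and wild-type replicate 3 the highest array, and the other mutant arrays inside the wild-type range. The means were -0.14 ± 0.62 (SD, n = 3) and 0.02 ± 0.49 (SD, n = 4), a difference of -0.15 ± 0.35 (limma SE, 95% interval -0.96 to 0.66, unadjusted p = 0.676). The other probe sets of Ppara did not give the same direction throughout. Probe set 1449051_at stood at 0.39, -0.26 and 0.56 in the mutant arrays and at -0.96, -0.24, 0.00 and 0.00 in the wild-type arrays, a difference of 0.53 ± 0.29 (unadjusted p = 0.108). This difference was 0.78 (unadjusted p = 0.0359) without mutant replicate 2, 0.78 (unadjusted p = 0.0156) with array weights and 0.31 (unadjusted p = 0.213) without wild-type replicate 1. Of all 34945 probe sets, 1295 had an unadjusted p under 0.05 without mutant replicate 2 and 3530 with array weights. The weights, fitted at gene level, ran from 0.329 for mutant replicate 2 to 3.23 for mutant replicate 3. Probe set 1439675_at differed by -0.01 ± 0.34. Over the 7 arrays the 3 probe sets correlated with each other at r = 0.623 to 0.790, and mutant replicate 2 was the lowest mutant array in each of them. With the mean of all 3 probe sets as the gene value, the Ppara difference was 0.12.

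Ppard encodes PPAR-delta, the main PPAR of skeletal muscle. Its gene value, from probe set 1439797_at in the class from 4 to 8, stood at 0.00, 0.00 and 0.03 in the mutant arrays. In the wild-type arrays it stood at -0.30, 0.13, 0.15 and -0.16. The mutant arrays lay within the wild-type range, and the difference was 0.05 ± 0.13 (95% interval -0.25 to 0.36, unadjusted p = 0.687). This is the narrowest interval of the 7 genes, and in fold terms it ran from 0.842 to 1.28. The other Ppard probe set, 1425703_at in the class from 2 to 4, differed by -0.11 ± 0.16 and ran opposite to the first over the arrays (r = -0.724, n = 7). A probe set that the annotation gives to both Ppard and 1810013A23Rik (1447902_at) was kept out of the tests. It stood at 0.00, 0.85 and -0.13 in the mutant arrays and at 0.56, -0.16, -0.45 and 0.33 in the wild-type arrays, which also overlapped.

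Angptl4 encodes a secreted protein that inhibits lipoprotein lipase and so holds back the uptake of circulating fat. The gene value was the mean of 2 probe sets in the class from 4 to 8 and stood at -0.25, 0.29 and -0.03 in the mutant arrays. The wild-type arrays stood at -0.53, 0.13, 0.10 and -0.06. The groups overlapped, with the highest array mutant replicate 2 and the lowest wild-type replicate 1, and the difference was 0.09 ± 0.20 (95% interval -0.37 to 0.55, unadjusted p = 0.663). The variation came from probe set 1417130_s_at, whose range over the arrays was 1.63. Probe set 1453410_at was exactly at its median on 5 of 7 arrays and had a range of 0.07. Their differences were 0.20 ± 0.37 and -0.02 ± 0.07. Leaving out both wild-type replicate 1 and wild-type replicate 2 changed the sign of the Angptl4 difference, to -0.02.

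Plin2 encodes perilipin 2, a coat protein of lipid droplets that rises when cells store fat. Its single probe set (1448318_at, class from 8 to 16) stood at 0.73, -0.02 and 0.00 in the mutant arrays and at -0.72, 0.21, 2.10 and -0.23 in the wild-type arrays. Wild-type replicate 3 was the upper end and wild-type replicate 1 the lower end of a range of 2.82, and the mutant arrays all lay inside the wild-type range. The difference was -0.10 ± 0.62 (95% interval -1.56 to 1.36, unadjusted p = 0.878), which in fold terms runs from 0.340 to 2.56. The SD within groups, 0.992, was 4.09 times the median of its level class and lay at its 98.8th percentile. Without wild-type replicate 3 the Plin2 difference was 0.49 (unadjusted p = 0.150), and without wild-type replicate 1 it was -0.45.

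Vldlr encodes the very low density lipoprotein receptor, which binds triglyceride-rich particles at the cell surface. Its gene value came from probe set 1434465_x_at in the class from 8 to 16 and stood at -0.29, 0.35 and 0.00 in the mutant arrays and at 0.50, -0.34, -1.10 and 0.07 in the wild-type arrays. The mutant arrays lay inside the wild-type range, whose lowest value was again that of wild-type replicate 3, and the difference was 0.24 ± 0.36 (95% interval -0.60 to 1.08, unadjusted p = 0.532). A further 4 probe sets in the class from 4 to 8 followed it closely. These 5 probe sets correlated with each other at r = 0.607 to 0.970 over 10 pairs, and wild-type replicate 3 was the lowest array in all 5. Their differences were 0.58 ± 0.29 (1438258_at), 0.30 ± 0.36 (1417900_a_at), 0.24 ± 0.36 (1434465_x_at), 0.15 ± 0.44 (1435893_at) and 0.06 ± 0.31 (1442169_at). The first of these had the smallest p of the 17 probe sets, 0.0858 unadjusted. It stood at -0.11, 0.44 and 0.53 in the mutant arrays and at 0.00, -0.34, -0.98 and 0.15 in the wild-type arrays, so mutant replicate 1 lay below 2 wild-type arrays. Its unadjusted p was under 0.05 without mutant replicate 1 (difference 0.78), without wild-type replicate 4 (0.73) and with a block for the 3 arrays that stand apart (0.67), and without wild-type replicate 3 the difference was 0.35 (unadjusted p = 0.149). The block was chosen after seeing the data. With it 1998 of all 34945 probe sets had an unadjusted p under 0.05, against 627 in the reported fit. The sixth probe set, 1451156_s_at in the class from 2 to 4, differed by -0.01 ± 0.09 and did not follow the others (r = -0.330 to 0.254). Without wild-type replicate 3 the Vldlr difference was -0.06.

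Ucp3 encodes the uncoupling protein of muscle mitochondria, a carrier of the inner membrane whose transcript rises in fasting. The mean of its 2 probe sets (class from 4 to 8) stood at -0.05, -0.04 and 0.39 in the mutant arrays. The wild-type arrays stood at 0.02, 0.05, -0.52 and 0.05. Mutant replicate 3 was the highest and wild-type replicate 3 the lowest, while the other 5 arrays lay between -0.05 and 0.05. The difference was 0.20 ± 0.18 (95% interval -0.22 to 0.63, unadjusted p = 0.302). Both probe sets gave a positive difference, 0.16 ± 0.21 (1420657_at) and 0.24 ± 0.22 (1420658_at), and correlated at r = 0.488. Without wild-type replicate 3 the Ucp3 difference was 0.06, and without mutant replicate 3 it was also 0.06.

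Acot1 encodes a cytosolic thioesterase that splits long-chain acyl-CoA into free fatty acid and coenzyme A. Its probe set (1449065_at) was the only gene value of the set in the lowest class, from 2 to 4. It stood at -0.31, 0.31 and -0.11 in the mutant arrays and at -0.06, 0.00, 0.57 and 0.32 in the wild-type arrays. Wild-type replicate 3 was the highest and mutant replicate 1 the lowest, and the groups overlapped. The difference was -0.24 ± 0.20 (95% interval -0.71 to 0.23, unadjusted p = 0.270), the smallest p of the 7 genes. Acot1 and its mitochondrial relative Acot2 are closely similar in sequence, so probes can read both. The probe set that the annotation gives to both (1422997_s_at) was not tested. It stood at -0.26, 0.00 and 0.00 in the mutant arrays and at -0.18, 0.27, 0.00 and 0.12 in the wild-type arrays, and these groups overlapped as well. Acot2 alone stood at 1.10, -0.10 and 0.00 against 0.12, -0.02, 0.73 and -0.09, a difference of 0.15 ± 0.33, with its highest values in mutant replicate 1 and wild-type replicate 3.

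**Figure D2:**
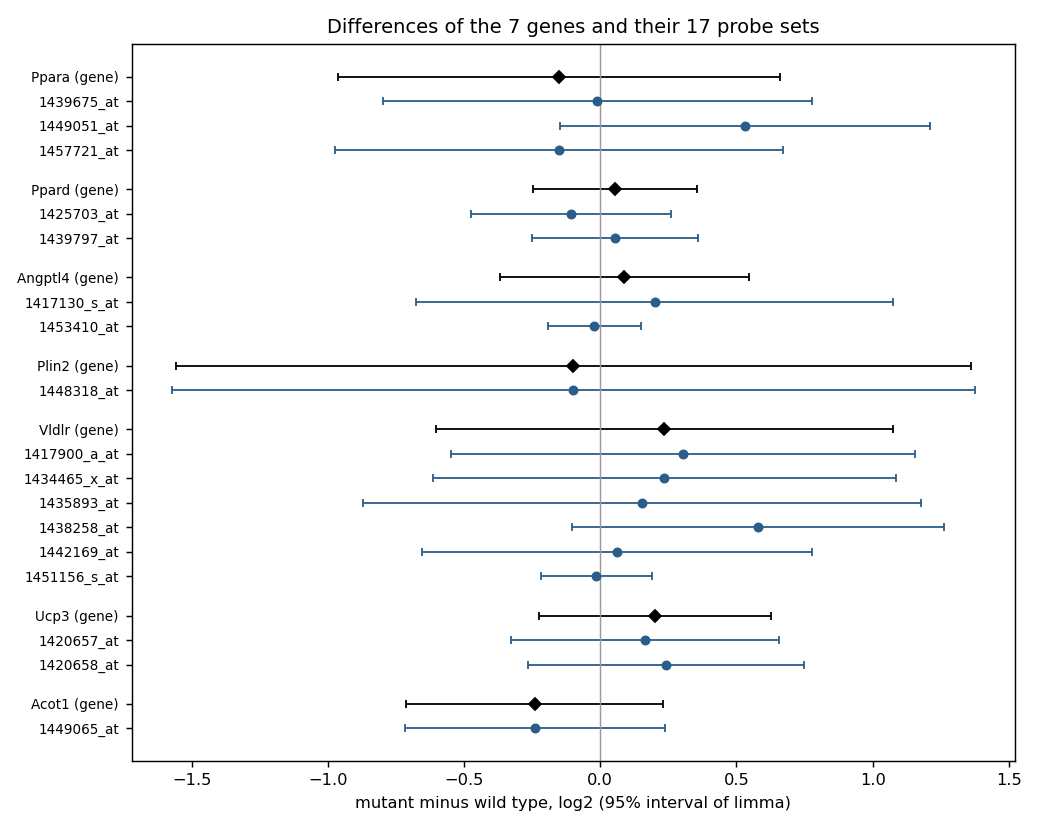
Difference between mutant and wild-type arrays in log2 (horizontal axis) for each of the 7 genes (black diamonds) and their 17 probe sets (blue circles), with the 95% interval of limma. Every interval includes 0, and the widest is that of Plin2, from -1.56 to 1.36 for the gene.

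The intervals set how large a difference these 7 arrays could have missed. The 95% interval lay within a 2-fold change either way for 5 of the 7 genes, for 10 of the 17 probe sets and for 17377 of all 18193 genes. Plin2 and Vldlr were the exceptions among the genes, with upper ends of 2.56-fold and 2.11-fold. For Angptl4 and Ppara this held for the gene value and not for every probe set. The interval of Angptl4 probe set 1417130_s_at ran from -0.676 to 1.075 in log2, past a doubling. That of Ppara probe set 1449051_at ran from -0.149 to 1.212. A 2-fold rise is thus not excluded by all probe sets of these genes. Some narrow intervals came from probe sets with low or nearly constant values. Acot1 and the probe sets 1425703_at (Ppard) and 1451156_s_at (Vldlr) lay in the lowest class. Probe set 1453410_at, exactly at its median on 5 of 7 arrays, enters the Angptl4 gene value. Whether these probe sets respond to a change in transcript level was not tested. A p that misses the threshold does not show that the groups had the same level.

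The larger pattern in the set was a difference between single arrays. Wild-type replicate 3 was the highest or lowest array in 6 of 7 genes, the highest for Ppara, Ppard, Plin2 and Acot1 and the lowest for Ucp3 and Vldlr. Over all genes it was at an end in 40.3%. The largest such share was that of mutant replicate 2, at 48.0%, which was at an end in 2 of 7 genes of the set. Wild-type replicate 1 was at an end in 4 of 7, the lowest for Ppard, Angptl4 and Plin2 and the highest for Vldlr, against 24.1% of all genes. Some genes of the set ran together or against each other over the 7 arrays. The 21 pairs had a median size of r of 0.535, from 0.023 for Ppara with Angptl4 upward, and 9 of the 21 changed sign without wild-type replicate 3. Among these were Plin2 with Acot1 (0.427 to -0.442) and Acot1 with Vldlr (-0.356 to 0.447). The strongest pair was that of Plin2 and Vldlr. They correlated at r = -0.946, and at -0.828 over the 6 arrays left without wild-type replicate 3. Ppara and Vldlr correlated at -0.863 (-0.805 without that array), Ppard and Vldlr at -0.768 (-0.736) and Ppard and Plin2 at 0.748 (0.761). The correlation of Ucp3 with Plin2 was -0.761 over all arrays and -0.123 without wild-type replicate 3, and that of Ucp3 with Vldlr was 0.654 and -0.08, so these rested on that array. The values for Ppard hold for probe set 1439797_at, whereas 1425703_at correlated with Vldlr at 0.556 and with Plin2 at -0.470. That of Ppara with Vldlr holds for 1457721_at, while 1439675_at gave -0.884 and 1449051_at -0.420. These coefficients describe 7 arrays that share their scaling and carry no test.

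Markers of fat cells moved over the arrays with several of these genes. The mean of 7 measured adipocyte markers of 10 listed stood at 0.19, -0.27 and -0.16 in mutant muscle and at -1.12, 0.61, 1.11 and -0.19 in wild-type muscle. It was lowest in wild-type replicate 1 and highest in wild-type replicate 3, as was Plin2. Across the 7 arrays the adipocyte mean correlated with Ppard at r = 0.903, with Plin2 at 0.881, with Ppara at 0.733, with Angptl4 at 0.589 and with Acot1 at 0.378. It correlated with Vldlr at -0.942 and with Ucp3 at -0.559. For Ppard and Ucp3 the probe sets differed in this, with r = 0.903 (1439797_at) and -0.701 (1425703_at) for Ppard and -0.146 (1420657_at) and -0.793 (1420658_at) for Ucp3. Those of Ppara gave 0.927 (1439675_at), 0.471 (1449051_at) and 0.733 (1457721_at). Angptl4 gave 0.584 (1417130_s_at) and 0.098 (1453410_at). Vldlr probe set 1451156_s_at gave 0.188, and the other Vldlr probe sets lay between -0.942 and -0.707. The leukocyte mean, over 10 of 10 markers, ranged from -0.13 to 0.26 in the mutant arrays and from -0.57 to 0.79 in the wild-type arrays. The fibroblast mean, over 10 of 10, ranged from -0.07 to 0.71 and from -0.26 to 1.00. Both were highest in wild-type replicate 3. The leukocyte mean and the mean of 5 measured nerve markers were also lowest in wild-type replicate 1, as the adipocyte mean was. That nerve mean was likewise highest in wild-type replicate 3. The slow fibre mean had the same ends and correlated with Plin2 at 0.571 and with Vldlr at -0.468. These ends are thus not particular to fat cell markers, and correlations with the leukocyte, fibroblast and nerve means are not given here. The muscle fibre mean was -0.39 in that array and between -0.03 and 0.13 in the others, and the fast fibre mean was -0.58 there and between -0.22 and 0.22 in the others. The part of these cell types and of the array itself in the values of the PPAR genes was not tested.

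**Figure D3:**
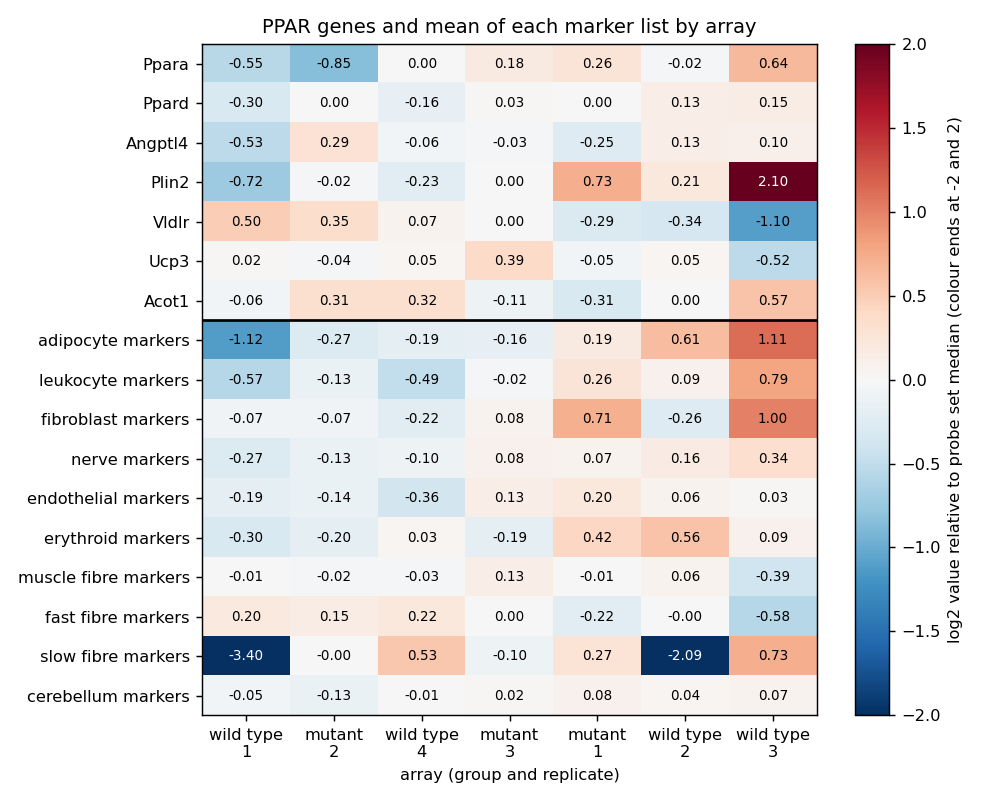
Values of the 7 PPAR genes (above the line) and means of 10 marker lists (below the line) on each array in log2 relative to the probe set median, coloured from blue (low) to red (high). Arrays are ordered by their adipocyte mean from -1.12 to 1.11, and along this order Plin2 ends at 2.10 and Vldlr at -1.10.

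Leaving out 1 array at a time moved the differences through 0 for 5 of the 7 genes. The Ppara difference ranged from -0.35 to 0.21, that of Ppard from -0.03 to 0.12, that of Angptl4 from -0.06 to 0.22, that of Plin2 from -0.45 to 0.49 and that of Vldlr from -0.06 to 0.47. Ucp3 stayed positive, from 0.06 to 0.28, and Acot1 stayed negative, from -0.42 to -0.10. In none of these fits did a gene of the set have an unadjusted p under 0.05.

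**Figure D4:**
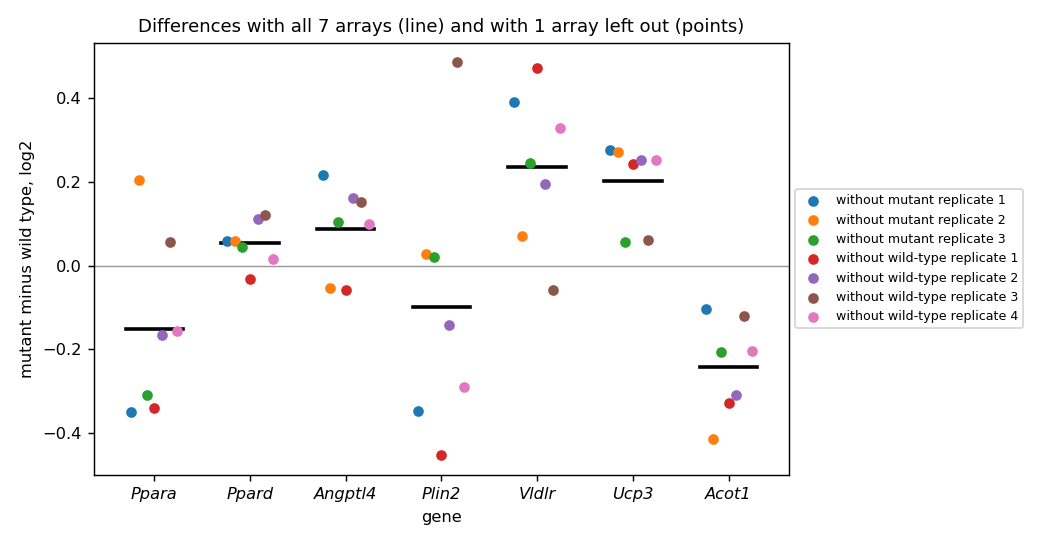
Difference between mutant and wild-type arrays in log2 (vertical axis) for each of the 7 genes with all 7 arrays (black line) and with 1 array left out (coloured points). Points lie on both sides of 0 for Ppara, Ppard, Angptl4, Plin2 and Vldlr, above it for Ucp3 and below it for Acot1.

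Other genes of the pathway were read from 7 lists with 103 entries, of which 94 were measured, and 0 passed an adjusted p of 0.05. The receptor partners and coregulators (14 of 16 measured) had 1 gene with an unadjusted p under 0.05, in the positive direction, and a median difference of 0.09. This gene was Nrip1, which encodes a corepressor of nuclear receptors, at 0.54 ± 0.18 (unadjusted p = 0.0201). It stood at 0.34, 0.00 and 0.30 in the mutant arrays and at -0.38, 0.13, -0.50 and -0.56 in the wild-type arrays, so only wild-type replicate 2 reached into the mutant range. The value came from 1 of 6 probe sets of Nrip1, and with the mean over all 6 the difference was 0.13 (unadjusted p = 0.457). Its unadjusted p was 0.108 with the replicate block, 0.0697 without mutant replicate 1, 0.0661 without mutant replicate 3 and 0.0525 without wild-type replicate 4. Ppargc1b, a coactivator, differed by 0.21 ± 0.11. Pparg, the PPAR of fat cells, differed by -0.59 ± 0.45, with its highest values, 1.68 and 0.89, in wild-type replicates 3 and 2, the arrays with the highest adipocyte mean. Without wild-type replicate 3 the Pparg difference was -0.22, with array weights it was -0.19, and with the block for 3 arrays it was -0.75 (unadjusted p = 0.0393). That block was chosen after seeing the data, and 909 of all 18193 genes had an unadjusted p under 0.05 with it.

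Among other PPAR targets of fatty acid uptake and storage, 15 of 16 were measured, 0 had an unadjusted p under 0.05 in limma and the median difference was -0.08. The lipid droplet proteins Plin4 (-0.21 ± 0.13), Plin5 (-0.37 ± 0.26) and Cidec (-0.69 ± 0.76) had the smallest p in this list, and Cidec is also 1 of the adipocyte markers. Without wild-type replicate 3 the Cidec difference was -0.18 and without mutant replicate 3 that of Plin5 was -0.15, while Plin4 was at -0.13 without wild-type replicate 4. Among targets of mitochondrial and peroxisomal oxidation, 21 of 24 were measured, Fgf21 was the 1 gene with an unadjusted p under 0.05 and the median was -0.01. Cpt1a, which loads fatty acids onto carnitine, differed by 0.25 ± 0.18, and Cat, the catalase gene, by -0.24 ± 0.25. The Cpt1a difference was 0.047 without mutant replicate 3, 0.093 with the mean over all 3 probe sets and 0.58 (unadjusted p = 0.0093) with array weights. In the fit with array weights 1686 of all 18193 genes had an unadjusted p under 0.05, against 257 in the reported fit. Pdk4, which encodes the kinase that shuts pyruvate dehydrogenase in fasting, stood at 0.20, -0.72 and 0.13 in the mutant arrays and at 0.11, 0.00, 0.00 and -0.16 in the wild-type arrays. Its groups overlapped and its difference was -0.11 ± 0.22 (unadjusted p = 0.623). Cpt1b had no probe set of its own symbol alone and is not analysed here.

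The acyl-CoA thioesterases related to Acot1 (12 of 12 measured) had 0 genes with an unadjusted p under 0.05 in limma and a median of 0.01. Those with the smallest p were Acot11 (-0.46 ± 0.31), Acot8 (-0.15 ± 0.12) and Acot7 (0.09 ± 0.10). The Acot11 difference was -0.17 without wild-type replicate 3. Of the relatives of Ucp3 (6 of 6 measured, median -0.01), 1 had an unadjusted p under 0.05, the brain mitochondrial carrier Slc25a27 at 0.32 ± 0.13 (unadjusted p = 0.0486). When its 4 probe sets were averaged, the Slc25a27 difference was 0.18 (unadjusted p = 0.0863), and its unadjusted p was 0.116 with the replicate block and 0.0574 with a variance trend. It was also above 0.05 without mutant replicate 2 (0.154) or 3 (0.0846) and without wild-type replicate 2 (0.0597), 3 (0.0940) or 4 (0.0904). Slc25a30, a mitochondrial carrier of the same family, differed by 0.09 ± 0.09. Ucp1, the uncoupling protein of brown fat, had a range of 6.77 over the arrays. It stood at 0.84, -1.62 and -1.18 in the mutant arrays and at -3.19, 0.00, 3.58 and 0.64 in the wild-type arrays, a difference of -0.91 ± 1.44. It had its lowest and highest values in wild-type replicates 1 and 3, the same arrays as Plin2 and the adipocyte mean. Angiopoietin-like proteins and lipoprotein receptors (8 of 11 measured, median -0.02) had 0 genes with an unadjusted p under 0.05 in limma. Those with the smallest p were Angptl7 (-0.45 ± 0.31), the endocytic receptor Lrp2 (-0.07 ± 0.08) and Angptl6 (0.10 ± 0.12). The Angptl7 difference was -0.20 without wild-type replicate 3.

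Fasting genes driven by glucocorticoids and FoxO factors, a separate arm of the fasting response, were read beside the PPAR genes. All 18 of 18 were measured, with a median of 0.02, and 2 had a positive and 1 a negative difference with an unadjusted p under 0.05. Cdkn1a, which encodes the cell cycle inhibitor p21, stood at 0.30, 0.30 and 0.44 in the mutant arrays and at 0.00, -0.65, -0.72 and -0.72 in the wild-type arrays, with no overlap. Its difference was 0.87 ± 0.19 (1.83-fold, unadjusted p = 0.00196, adjusted p = 1.00). Mt2, a metallothionein gene that glucocorticoids raise, differed by 0.60 ± 0.24 (unadjusted p = 0.0404). Cebpd, a transcription factor gene, differed by -0.57 ± 0.23 (unadjusted p = 0.0430). Without mutant replicate 1 the Mt2 difference was 0.42 (unadjusted p = 0.149) and that of Cebpd -0.43 (unadjusted p = 0.151). Unadjusted p-values of both were also above 0.05 without mutant replicate 3 (0.112 and 0.153), wild-type replicate 2 (0.0967 and 0.0968) or wild-type replicate 4 (0.0970 and 0.101) and with age as a covariate (0.0561 and 0.0626). Without mutant replicate 2 they were at 0.82 (unadjusted p = 0.0101) and -0.86 (unadjusted p = 0.0013). With array weights, where 1686 of all 18193 genes had an unadjusted p under 0.05, Mt2 and Cebpd were at 0.78 (unadjusted p = 0.0044) and -0.86 (unadjusted p = 0.00087). Whether these 3 genes or Fgf21 differed between groups by more than the PPAR genes did was not tested.

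For each gene of the set, the genes most like it over the 7 arrays were found by Pearson correlation among 12776 genes in the 2 upper classes. They were Pgap6, Prr27 and Krtap3-1 for Ppara (r = 0.986 to 0.988), Rnf5, Mxra8 and Ccdc12 for Ppard (0.987 to 0.994) and Psmc3ip, Ppp2cb and Tmem115 for Angptl4 (0.963 to 0.984). For Plin2 they were Timm8a1, Ocel1 and Cfp (0.993 to 0.997), for Vldlr Zdhhc5, Celf1 and Samd4 (0.988 to 0.996), for Ucp3 Ppan, Gm266 and Sugt1 (0.975 to 0.997) and for Acot1 Ak3, Comtd1 and Nenf (0.967 to 0.976). None of these 21 genes is another gene of the set, and Acot1, in the lowest class, was not among the genes searched. With the mean over all probe sets as each gene's value, the correlation of Ppard with Rnf5 was -0.020, with Mxra8 0.053 and with Ccdc12 -0.0026, and that of Ucp3 with Gm266 was -0.44. With 7 arrays and this many genes to choose from, such high values describe a shared profile over these arrays and nothing more.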

How the data were processed

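Total RNA of 7 muscles was extracted with Trizol and biotin-labelled from 5 ug, per the labels' protocols, and each sample was read on 1 Affymetrix array. The deposited table holds log2 values of 45101 probe sets, relative to the median of each probe set over the 7 arrays, which was exactly 0 for all 45101. The log2 scale and the centring are read from the values, and a higher value was taken to mean more signal, which the sources used here do not state. The submitters' processing notes name GCOS 4.0, and the summary method, background step and scaling between arrays are not given in the sources used here. Centring removed levels, so a level class (2 to 4, 4 to 8 or 8 to 16) was estimated for each probe set from how finely its single-precision numbers are spaced. On 20000 simulated probe sets 95.0% of classes were recovered. Arrays give no read depth, and precision is limited by their number.

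Gene symbols came from the platform's annotation table, which is old, and were updated by Entrez identifier through a RefSeq table of GRCm38.p6. Of the 45101, 34958 had 1 symbol, 932 several and 9211 none, and 34754 matched the table. The tests covered 34945 probe sets and 18193 genes. A gene with several probe sets took the mean of those in its highest class.

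Mutant and wild-type arrays, grouped by sample title, were compared with limma 3.58.1 in R 4.3.3 (lmFit, eBayes, constant prior variance, two-sided, no covariate, no filter), with Benjamini-Hochberg adjustment over all genes or all probe sets and a threshold of 0.05. The labels call replicates biological, which was taken to mean separate mice. In data simulated for this comparison (18193 genes), shifts of 0.5, 1, 2 and 3 on the log2 scale were given to 50 genes each. They were recovered in 16%, 60%, 84% and 100% of these, and 8 unshifted genes were called. The rates describe the simulated data only. On the measured arrays 0 genes passed, and Fgf21 did not pass with a difference of 1.48. How often shifts of these sizes would be found on the measured arrays was not tested.

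The genes, the 7 pathway lists and the 10 marker lists were chosen with earlier results of these data known. The text names every gene of the set with all its probe sets, Fgf21, Twnk, Pdk4, Acot2, the 3 genes of each pathway list with the smallest p, and the 3 genes most like each gene of the set. Cpt1b was also to be named, and 1 other gene of the rule is not reported here. Protein sequences were planned and are not used here. Tried as alternatives were quantile normalization, the mean over all probe sets, a variance trend, a filter on the lowest class, age, a replicate block, array weights, leaving out arrays, and a block for 3 arrays that stand apart. Correlation of the deviations from group means was -0.53, -0.37 and 0.16 for replicate numbers 1, 2 and 3. These values did not show that the numbers pair the samples, and 3 values are too few to exclude it. Ages were equal within numbers 2 and 3 and differed within number 1.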

Additional observations from a re-analysis of the deposited data

Results flagged for a closer look

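In 6 of 60 groups of 4 wild-type arrays, 1 array lay far from the other 3 by Dixon's criterion, and chance flags about 1 in 20 groups. Ucp3 was lowest in wild-type replicate 3, at -0.52, with the others between 0.02 and 0.05. In the same array the mean of the fibroblast markers was highest at 1.00 (others -0.26 to -0.07), and so was the mean of the angiopoietin-like proteins and lipoprotein receptors at 0.40 (others -0.15 to -0.06). Cdkn1a was highest in wild-type replicate 1, at 0.00, with the others between -0.72 and -0.65, and Angptl6 was lowest there at -0.35 (others 0.00 to 0.02). Angptl4 probe set 1453410_at was at 0.0060 in wild-type replicate 4 and at exactly 0 in the other 3 wild-type arrays, so this gap is minute in size.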

How the results depend on the processing

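No gene or probe set passed the adjusted threshold under any alternative run, for the PPAR genes, the pathway lists or all genes. The count of genes with an unadjusted p under 0.05, 257 in the reported fit, was 144 without the lowest level class, 96 with the replicate block, 1686 with array weights, 909 with a block for the 3 arrays that stand apart (chosen after seeing the data) and 181 to 581 with 1 array left out. For probe sets the 627 became 333, 279, 3530, 1998 and 471 to 1295 in the same order. Of the probe sets of the PPAR genes, 0 in the reported fit, 2 had an unadjusted p under 0.05 with array weights (1449051_at and 1420657_at), 1 with the block for 3 arrays (1438258_at) and 0 to 1 with 1 array left out. The 384 genes without overlap became 236 without the lowest class, 2046 without both wild-type arrays with low slow fibre genes (fewer arrays leave fewer to overlap) and 607 to 1838 with 1 array left out.

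Of 125 alternative values of the 7 gene differences 104 kept their sign, and of 252 probe set values 221 did. Some of these could not change sign. A variance trend leaves every difference as it is, and so did the filter on the lowest class for the genes and probe sets it kept. The mean over all probe sets equals the reported value for Angptl4, Ucp3, Plin2 and Acot1. The replicate block gave -0.16 for Ppara, 0.02 for Ppard, 0.10 for Angptl4 and 0.25 for Ucp3. It gave -0.29 for Plin2, -0.20 for Acot1 and 0.33 for Vldlr. Since pairing by number was not shown, this block is a check on the fit only. The sign changed with array weights for Ppara (0.21), Plin2 (0.20), Vldlr (-0.033), Twnk (-0.12), Pdk4 (0.13), Cidec (0.011) and Slc25a30 (-0.0061). With the mean over all probe sets it changed for Ppara (0.12), Ppard (-0.027) and Acot2 (-0.021), and with quantile normalization for Plin2 (0.099) and Twnk (-0.031). Without both wild-type arrays with low slow fibre genes Angptl4 was at -0.022. Within the 3 arrays that stand apart Ucp3 was at -0.072, Plin2 at 0.46 and Acot1 at 0.18, and within the other 4 Ppard was at -0.13 and Angptl4 at -0.26. Among probe sets, array weights changed the sign of 1439675_at (0.27), 1457721_at (0.21), 1448318_at (0.18), 1434465_x_at (-0.024), 1435893_at (-0.19) and 1442169_at (-0.33). Quantile normalization did so for 1439675_at (0.051), 1448318_at (0.099) and 1442169_at (-0.15), and leaving out both arrays with low slow fibre genes for 1417130_s_at (-0.021) and 1451156_s_at (0.023). The cause of these changes was not tested.

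With 1 array left out, Ppara ranged from -0.35 to 0.21, Ppard from -0.031 to 0.12, Angptl4 from -0.057 to 0.22, Plin2 from -0.45 to 0.49, Vldlr from -0.058 to 0.47, Twnk from -0.13 to 0.17, Pdk4 from -0.28 to 0.18, Acot2 from -0.23 to 0.36 and Ucp1 from -2.06 to 0.20. Among probe sets the ranges were -0.30 to 0.23 (1439675_at), 0.31 to 0.78 (1449051_at), 0.35 to 0.78 (1438258_at), -0.35 to 0.21 (1457721_at), -0.20 to 0.00045 (1425703_at), -0.031 to 0.12 (1439797_at), -0.093 to 0.46 (1417130_s_at), -0.039 to 0.29 (1420657_at), -0.45 to 0.49 (1448318_at), -0.058 to 0.47 (1434465_x_at), -0.16 to 0.46 (1435893_at), -0.21 to 0.22 (1442169_at) and -0.059 to 0.040 (1451156_s_at). Acot1 has no value without the lowest class, which holds its only probe set.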
